A study of Homo sapiens with 6 samples.

Results

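The mitogen-activated protein (MAP) kinases studied here were the kinases of the ERK, JNK and p38 cascades, with the ERK5 arm set apart. The members were chosen by gene symbol from the families MAPK, MAP2K, MAP3K, MAP4K and MAPKAPK. The rule held no measured value, but it was made with earlier results of these data known. Of 19775 genes with a probe set of their own, 36 were members, read by 94 probe sets, and a further 6 genes of these families were not analysed here. EJ, a human bladder cancer cell line, was transfected with a FOXA1 construct in 3 dishes and, by the labels, with the plasmid pUC19 in 3 control dishes. The study's methods name another vector for the FOXA1 construct, with the empty vector as control. If the labels hold, a difference in plasmid and FOXA1 itself cannot be told apart. Both groups were transfected with a Lipofectamine reagent and grown in the same serum-containing medium. FOXA1 is a forkhead transcription factor of differentiated urothelium. A transfected dish holds cells that took up the construct and cells that did not, and the array reads them together, so that fewer expressing cells and less RNA per cell cannot be told apart. Total RNA from each dish was hybridised to 1 Affymetrix array, which gave a MAS5 signal per probe set, an intensity scaled so that every array had the same trimmed mean.

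In a MAP kinase cascade 3 kinases act in series. A MAP3K, switched on by stress, cytokine or growth factor receptors, phosphorylates a MAP2K, which phosphorylates a MAPK, and MAP4Ks act on some MAP3Ks from above. ERK mostly carries growth factor signals, while JNK and p38 answer to stress and inflammatory cytokines, and the MAPKAP kinases are substrates that carry the p38 signal, and in part the ERK signal, further. In bladder cancer the ERK arm is known for its place downstream of growth factor receptors and RAS, and EJ cells carry an activated RAS gene.

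The arrays checked the labels first. FOXA1 read 38.9, 34.8 and 31.9 in the FOXA1 transfected cells and 21.8, 24.4 and 21.0 in the control cells, a log2 difference of 0.65 (SE 0.23, limma adjusted p = 0.307) with no overlap between the groups. Its other probe set, 237086_at, was dim and went the other way with overlap, at 5.30 ± 2.43 against 7.07 ± 1.07 (log2 difference −0.54). All differences are given as FOXA1 transfected minus control cells by the labels, and the study lists MAP3K5, MAP2K5 and IER3 with the sign opposite to the one found here. KRT18, a simple epithelial keratin, and VIM, the mesenchymal intermediate filament, read 2478 ± 103 and 4068 ± 508 in the FOXA1 transfected cells against 2261 ± 165 and 3836 ± 238 in the control cells (SD, n = 3), while KRT19 stood at or under 3.5, the 20th percentile of all signals, in all 6 arrays. CDH2, or N-cadherin, read 361.6 ± 30.9 against 494.8 ± 36.4, with no overlap, and so did the dimmer FN1, or fibronectin, at 15.4 ± 8.22 against 24.6 ± 2.19. Over the fixed marker lists, the summed signal of 4 keratins ranged from 2424.4 to 2603.7 in the FOXA1 transfected cells and from 2134.5 to 2459.5 in the control cells, and that of 3 mesenchymal genes from 3852.5 to 4877.8 and from 4045.7 to 4560.9. Most of the keratin sum is KRT18 and most of the mesenchymal sum is VIM. The summed signal of 6 genes of differentiated urothelium ranged from 72.7 to 103.3 in the FOXA1 transfected cells and from 58.4 to 81.4 in the control cells, that of 4 leukocyte genes from 40.4 to 58.3 and from 33.6 to 46.1, that of 4 endothelial genes from 52.4 to 72.1 and from 55.0 to 58.7, and that of 4 muscle and nerve genes from 22.2 to 36.4 and from 24.5 to 46.8. For ACTB, the signal of the 3′ control probe set over that of the 5′ one, which rises when RNA is partly degraded or labelled short, was 2.37 ± 0.23 in the FOXA1 transfected cells and 1.73 ± 0.19 in the control cells (exact permutation p = 0.1, the smallest that 3 against 3 arrays allow), and that of GAPDH was 0.92 ± 0.02 against 0.90 ± 0.01. The part that RNA quality plays in the differences given here was not tested.

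The promoters of 3 kinases with a gap between the groups are shown first, because the study concerned a transcription factor. They are the RefSeq windows on GRCh38.p14 from 250 bases before to 50 bases after a transcript start of a gene. Of the 36 members 32 had at least 1 window. The start used need not be the outer end of the gene, and the MAPKAPK3 window shown lies wholly inside the gene's span. The CpG dinucleotides are in capitals in MAP3K5 (chr6:136793042-136793341, minus strand), MAPKAPK3 (chr3:50611627-50611926, plus strand) and MAP3K19 (chr2:135047398-135047697, minus strand).
MAP3K5: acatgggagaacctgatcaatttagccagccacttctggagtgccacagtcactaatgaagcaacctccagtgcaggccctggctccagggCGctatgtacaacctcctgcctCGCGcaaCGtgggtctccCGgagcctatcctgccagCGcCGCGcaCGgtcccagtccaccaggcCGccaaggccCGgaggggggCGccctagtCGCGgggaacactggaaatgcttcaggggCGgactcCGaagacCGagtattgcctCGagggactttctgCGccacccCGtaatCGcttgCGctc
MAPKAPK3: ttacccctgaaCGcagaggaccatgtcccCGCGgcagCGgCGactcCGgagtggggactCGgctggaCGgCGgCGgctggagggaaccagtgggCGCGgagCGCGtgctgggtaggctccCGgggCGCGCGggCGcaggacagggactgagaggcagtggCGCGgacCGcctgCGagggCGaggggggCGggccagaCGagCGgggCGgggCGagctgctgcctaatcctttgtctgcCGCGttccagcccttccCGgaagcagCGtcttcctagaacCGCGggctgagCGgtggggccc
MAP3K19: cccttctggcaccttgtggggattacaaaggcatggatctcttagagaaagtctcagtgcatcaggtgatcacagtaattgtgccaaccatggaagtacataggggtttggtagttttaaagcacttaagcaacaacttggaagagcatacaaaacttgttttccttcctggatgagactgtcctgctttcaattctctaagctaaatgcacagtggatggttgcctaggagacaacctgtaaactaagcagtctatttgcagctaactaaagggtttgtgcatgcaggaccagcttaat
The MAP3K5 window held 22 CpG dinucleotides and had 63.3% GC, that of MAPKAPK3 held 36 and had 73.7%, and that of MAP3K19 held 0 and had 43.3%. CpG-rich windows were common among the kinases. Over the first window of each gene the median GC content was 73.2% for the 32 members and 63.0% for all 15381 genes with a window and a probe set, and 27 members (84.4%) against 64.4% of all genes had at least 50% GC together with an observed over expected CpG ratio of at least 0.6.

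Forkhead factors such as FOXA1 bind a short core sequence, so the windows were searched on both strands for its forms TGTTTAC and TGTTTGC. The first of these, TGTTTAC, was found in 2 of the 46 member windows, against 2.87% of all 21484 windows. Both windows belong to 1 member, MAP3K8 (TPL2, a MAP3K of the ERK arm), and overlap at the same site. The match is in capitals in the first of them (chr10:30433771-30434070, plus strand), where it begins at base 276, after the start.
MAP3K8: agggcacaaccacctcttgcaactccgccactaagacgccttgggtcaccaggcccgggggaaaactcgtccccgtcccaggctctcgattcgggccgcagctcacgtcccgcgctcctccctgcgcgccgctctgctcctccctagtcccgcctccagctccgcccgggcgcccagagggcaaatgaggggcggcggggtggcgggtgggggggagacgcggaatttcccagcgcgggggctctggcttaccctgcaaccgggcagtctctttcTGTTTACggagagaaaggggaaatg
TGTTTGC was in none of the 46 member windows and in 3.39% of all windows. Of the sites bound by factors at the end of these cascades, TGACTCA, the AP-1 site, was found in 2 of the 46 member windows, against 4.09% of all windows. TGACGTCA, the CRE site of ATF2 and CREB1, was likewise in 2 of the 46, against 2.35% of all windows. Each of these sites was found in 2 members. MAP3K8 itself read almost alike in both groups, 21.2 ± 4.99 against 21.2 ± 4.95, with a log2 difference of 0.00 and a 95% interval from −0.69 to 0.69.

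No kinase of these cascades passed the test, and as a group they lay where all genes lay. None of the 36 passed limma's adjusted p of 0.05, at the brightest probe set or at any other of the 94, where 0.0586% of all 54613 probe sets and 0.091% of all genes passed. MAP2K5 of the ERK5 arm, which had a probe set that passed, is left out of these counts by the rule. At an unadjusted p of 0.05 the count was 7 of 36 (19.4%), against 14.6% of all genes, and 11 of 94 probe sets, against 11.3% of all probe sets. The 3 arrays of each group did not overlap for 8 members (22.2%, against 19.7% of all genes), with the FOXA1 arrays above in 5 (13.9%, against 12.5%) and below in 3 (8.3%, against 7.25%). The median log2 difference was 0.06 over the members and 0.07 over all genes, and 22 members (61.1%, against 59.2% of all genes) lay above 0. That split depended on how arrays were set level. With each array centred on its own median every log2 difference fell by 0.18, and 11 of 36 members (30.6%, against 38.3% of all genes) lay above 0. The brightness of the members differed widely, and 29 lay above the median signal of all probe sets, of which 16 were above 0 (against 56.3% of all genes above that signal) and 7 did not overlap (24.1%, against 25.1%). The plot of differences by tier shows the intervals.

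**Figure D1:**
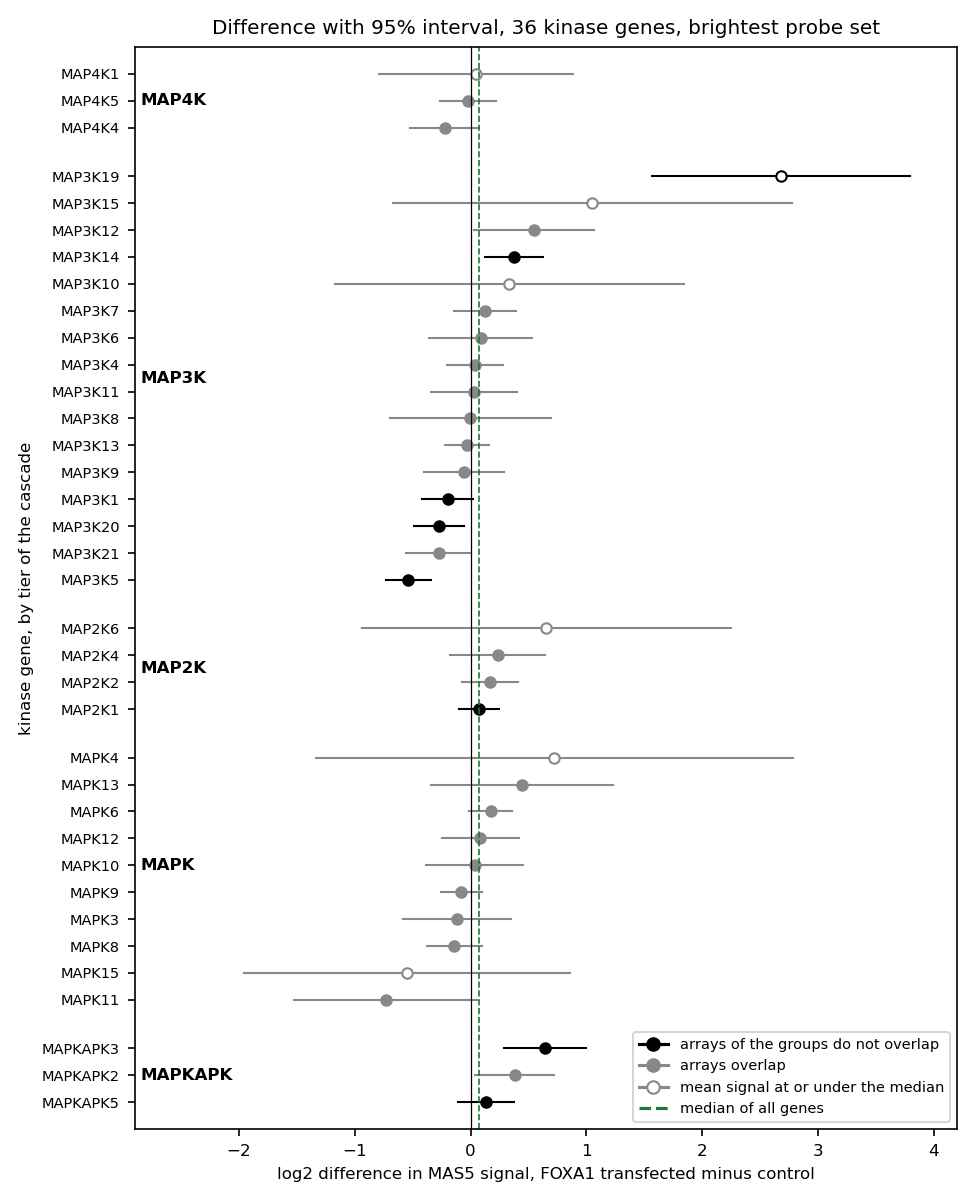
Log2 difference in MAS5 signal between FOXA1 transfected and control cells (x axis) of 36 kinase genes by tier of the cascade (y axis), with 95% intervals from limma, n = 3 arrays a group; black marks genes whose arrays do not overlap between groups, open circles genes at or under the median signal, and the dashed line the median of all genes. With intervals that leave out 0, MAP3K19, MAP3K14, MAP3K12, MAPKAPK3 and MAPKAPK2 lie above it and MAP3K5 and MAP3K20 below it. The intervals of all MAPK and MAP2K genes include 0.

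The MAPKs at the end of the cascade held no gene that passed the test or whose groups stood apart. Of 10 measured, 5 lay above 0 and 5 below (2 and 8 after median centring), none without overlap. Of all genes 59.2% lay above 0 and 19.7% did not overlap, and with 10 genes the tier was not tested. MAPK3, which encodes ERK1, read 119.1 ± 40.9 in the FOXA1 transfected cells and 125.0 ± 18.1 in the control cells (log2 difference −0.12, 95% interval −0.58 to 0.35). For the JNK genes MAPK8, MAPK9 and MAPK10 the log2 differences at the brightest probe set were −0.14, −0.08 and 0.03, the last of them below 0 after quantile normalization or median centring. The interval of MAPK9, from −0.26 to 0.10, was the narrowest of the 10 and leaves out larger changes at this probe set. Of the p38 genes, MAPK12 had a log2 difference of 0.08 (below 0 after median centring) and MAPK13 of 0.45, with intervals of −0.25 to 0.42 and −0.34 to 1.23.

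MAPK11, the gene of p38β, read 26.7, 12.1 and 37.7 in the FOXA1 transfected cells and 38.7, 36.2 and 40.0 in the control cells. The control arrays lay close together, while the FOXA1 arrays were spread from the second array, far below them, to the third, within their range. The log2 difference was −0.73 (SE 0.36, adjusted p = 0.479), and without the second FOXA1 array it was −0.27. MAPK6 encodes the atypical kinase ERK3, which is activated outside the usual MAP2K step. Its signal was 1086.5, 1219.6 and 1157.7 in the FOXA1 transfected cells and 936.6, 1026.4 and 1114.5 in the control cells, overlapping at 1 array of each group (log2 difference 0.17, SE 0.09, adjusted p = 0.483, and −0.01 after median centring). The other atypical kinases, MAPK4 and MAPK15, were dim, with mean signals of 5.73 and 9.12, and their log2 differences of 0.72 and −0.55 had intervals that spanned over 2 units.

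All 4 measured MAP2Ks lay above 0, and 2 of them did so after median centring. MAP2K1, or MEK1, which phosphorylates ERK, read 426.0, 442.3 and 423.1 in the FOXA1 transfected cells and 422.2, 409.6 and 397.8 in the control cells. The groups did not overlap, by a margin of under 1 unit of signal, and the log2 difference was 0.07 (SE 0.08, adjusted p = 0.781), or −0.11 after median centring. Its partner MAP2K2 (MEK2) had a log2 difference of 0.17, or −0.01 after median centring, MAP2K4, which acts on JNK and p38, of 0.24, and MAP2K6, which acts on p38 and was dim (mean signal 11.9), of 0.65. The intervals of all 4 included 0.

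The 16 MAP3Ks at the entry of the cascade held 5 genes without overlap (against 19.7% of all genes) and 5 at an unadjusted p of 0.05 (against 14.6%), and the tier itself was not tested. Of the 16, 9 lay above 0 and 7 below (5 and 11 after median centring). MAP3K5 encodes ASK1, which thioredoxin holds inactive and oxidative stress releases towards JNK and p38. It spans chr6:136557046-136793091 on GRCh38.p14. At probe set 203837_at its signal was 189.4, 180.6 and 185.6 in the FOXA1 transfected cells and 260.9, 274.5 and 271.5 in the control cells. Every FOXA1 array was thus well below every control array, and the spread within a group was small. The log2 difference was −0.54 (SE 0.09, 95% interval −0.73 to −0.35, adjusted p = 0.0749), and it stayed between −0.72 and −0.52 under every scaling and left-out array. The study chose MAP3K5 for its list on these same arrays, so that the gene is no independent evidence of a direction. The other probe set of the gene, 203836_s_at, read 124.4, 102.1 and 122.5 against 132.1, 172.6 and 126.8, again with every FOXA1 array below every control array (log2 difference −0.30, SE 0.14, adjusted p = 0.465). Of the other ASK genes, MAP3K6 (ASK2), which pairs with ASK1, had a log2 difference of 0.09 at its brightest probe set (−0.09 after median centring), and MAP3K15 (ASK3) was dim, with a mean signal of 5.32 and a log2 difference of 1.05 (interval −0.67 to 2.77). TXN, the gene of thioredoxin, read 4920 ± 536 against 5074 ± 256.

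MAP3K20 encodes ZAK, a MAP3K that senses stalled ribosomes and acts on JNK and p38. At its brightest probe set, 225662_at, it read 286.0, 275.8 and 287.6 in the FOXA1 transfected cells and 342.6, 381.3 and 305.0 in the control cells. The 3 FOXA1 arrays lay together just below the lowest control array (log2 difference −0.27, SE 0.10, adjusted p = 0.322). At a second probe set, 225665_at, the gap was wider, with 241.3, 238.6 and 241.7 against 374.3, 417.9 and 323.1 (log2 difference −0.62, SE 0.10, adjusted p = 0.0779). MAP3K1 (MEKK1), a MAP3K of the JNK arm, was likewise below in all arrays, at 188.4, 166.6 and 171.2 against 212.4, 202.6 and 188.8. There the nearest arrays of the groups, 188.4 and 188.8, almost touched, and the interval of its log2 difference (−0.20, SE 0.10, adjusted p = 0.489) included 0. MAP3K21 (MLK4) read 121.1, 131.2 and 110.4 in the FOXA1 transfected cells and 141.5, 168.2 and 130.8 in the control cells, which overlap by 1 array (log2 difference −0.28, SE 0.13, adjusted p = 0.447).

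Other MAP3Ks lay above the control cells. MAP3K14 encodes NIK, the kinase of the non-canonical NF-κB pathway, which is a MAP3K by sequence. It read 173.8, 148.8 and 178.1 in the FOXA1 transfected cells and 119.3, 129.5 and 136.6 in the control cells, without overlap (log2 difference 0.38, SE 0.11, adjusted p = 0.252). MAP3K12, or DLK, a MAP3K of the JNK arm known from neurons, read 69.7, 50 and 57.7 against 53.8, 28.9 and 41.5, overlapping at the lowest FOXA1 and the highest control array (log2 difference 0.55, SE 0.24, adjusted p = 0.416). MAP3K19 was dim. It read 21.2, 16.6 and 20.1 in the FOXA1 transfected cells and 2.8, 3.1 and 3.1 in the control cells, of which every control array was under the 20th percentile of all signals, 3.5, and the mean of all 6 was under the median of 14.5. The log2 difference as measured was 2.68 (SE 0.51, 95% interval 1.56 to 3.8, adjusted p = 0.0993), a size that rests on those low control signals. With signals under 3.5 set to that value it was 2.46 and passed, with an adjusted p of 0.0397 (0.0397 to 0.321 over its 12 alternatives). Its other probe set, 1555804_a_at, read 2.07 ± 1.36 against 3.0 ± 2.02 and gave no such difference.

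The remaining MAP3Ks, MAP3K4, MAP3K7 (TAK1, which cytokine receptors activate), MAP3K9, MAP3K10, MAP3K11 and MAP3K13, had log2 differences from −0.06 to 0.34, all with intervals that included 0, and MAP3K4, MAP3K7 and MAP3K11 turned below 0 after median centring. Of these MAP3K10 was the dimmest member of all, with a mean signal of 3.38. The 3 MAP4Ks, which act above the MAP3Ks, lay at 0.05 (MAP4K1, below 0 after quantile normalization or median centring), −0.02 (MAP4K5) and −0.22 (MAP4K4). The interval of MAP4K4, from −0.52 to 0.08, leaned to the lower side, and its 5 bright probe sets all had log2 differences below 0, from −0.22 to −0.01.

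**Figure D2:**
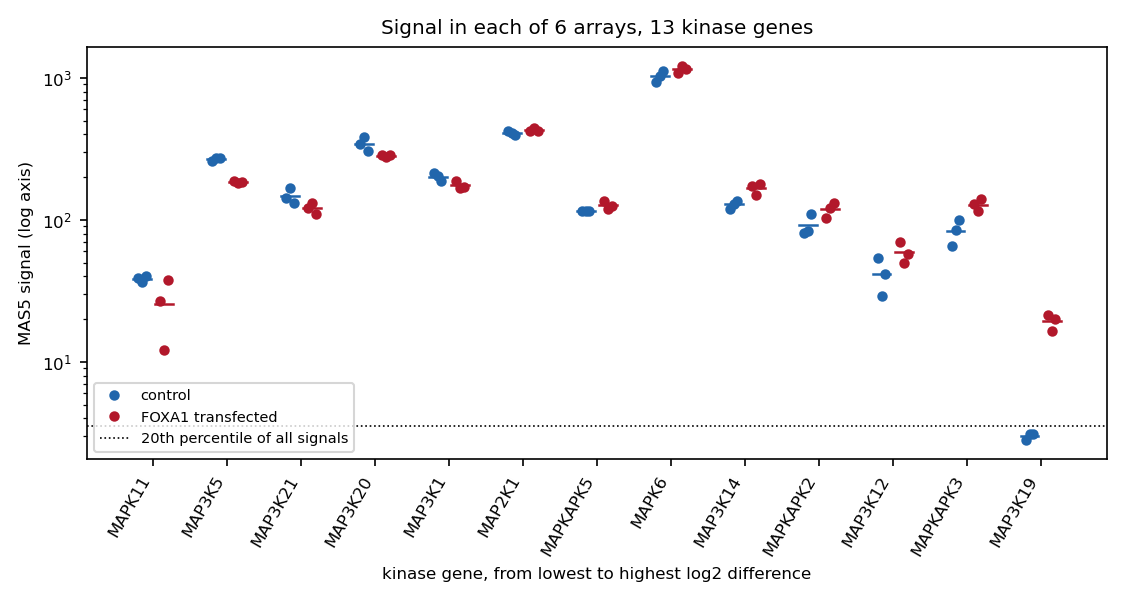
MAS5 signal on a log axis (y axis) in each of the 3 control arrays (blue) and 3 FOXA1 arrays (red) of the 13 kinase genes whose values are given by array (x axis), with a short line at each group mean and a dotted line at the 20th percentile of all signals. The red points lie below the blue in MAP3K5, MAP3K20 and MAP3K1 and above them in MAP3K19, MAPKAPK3, MAP3K14, MAPKAPK5 and MAP2K1, and MAP3K19 has its control arrays under the dotted line.

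The MAPKAP kinases carry the p38 signal to mRNA stability and the cytoskeleton, and all 3 lay above 0. MAPKAPK3 (MK3), at chr3:50611520-50649291, read 128.4, 114.9 and 140.6 in the FOXA1 transfected cells and 65.3, 84.4 and 99.3 in the control cells. The lowest FOXA1 array was above the highest control array (log2 difference 0.64, SE 0.16, 95% interval 0.29 to 1.0, adjusted p = 0.179). MAPKAPK2 (MK2), the close relative with the better known targets, read 103.1, 120.8 and 131.9 against 80.2, 83.9 and 110.8. Its groups overlapped at 1 array on each side, and the log2 difference was 0.38 (SE 0.15, adjusted p = 0.381). MAPKAPK5 (PRAK or MK5), a partner of ERK3, read 136.5, 118.5 and 126.2 in the FOXA1 transfected cells and 115.0, 116.2 and 115.2 in the control cells. It did not overlap, but the difference of 0.14 (SE 0.11, adjusted p = 0.688) became −0.05 after median centring. Those of MAPKAPK3 and MAPKAPK2 at the brightest probe set stayed above 0, at 0.46 and 0.20. The other bright probe sets of MAPKAPK2, 201461_s_at and 215050_x_at, had log2 differences of −0.18 and 0.14 (−0.36 and −0.04 after median centring).

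Most genes on this array have several probe sets, which can read different transcripts of the gene or parts of it, and 17 members had 2 or more above the median signal. In 7 of these all bright probe sets lay on 1 side of 0, and in 10 on both sides (9 after median centring). Whether the difference between the groups was the same at all probe sets of a gene was tested with diffSplice, which passed 1.03% of 5949 genes at an adjusted Simes p of 0.05. None of the 17 members passed, and 5 of 17 were under an unadjusted p of 0.05, against 12.2% of all genes. The smallest was MAPKAPK3 (adjusted p = 0.182), where the probe set 202787_s_at read 59.3 ± 18.2 in the FOXA1 transfected cells and 65.5 ± 7.36 in the control cells, a log2 difference of −0.18 beside the 0.64 of the brightest.

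MAP3K13 (LZK, the nearest relative of DLK) followed with an adjusted p = 0.237. Its brightest probe set read 533.4 ± 19.7 against 545.7 ± 43.9, while 229771_at, a dimmer one, read 25.9, 13.3 and 32.8 in the FOXA1 transfected cells and 14.3, 9.2 and 7.5 in the control cells (log2 difference 1.17, SE 0.44), with overlap at 1 array of each group. For MAP3K20 (adjusted p = 0.319) the 7 bright probe sets ran from −0.62 to 0.33. The 5 below 0 included the 3 brightest, and those above 0, 222757_s_at (0.11, or −0.07 after median centring) and 218833_at (0.33), overlapped between groups. MAP3K6 (adjusted p = 0.335) had a second probe set, 1552631_a_at, that read 26.3, 31.0 and 34.1 in the FOXA1 transfected cells and 17.9, 19.0 and 12 in the control cells. All FOXA1 arrays were above all control arrays there (log2 difference 0.92, SE 0.29, adjusted p = 0.269), where the brightest showed no gap.

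MAPK8 (JNK1) had an adjusted p = 0.372. Its probe set 229664_at read 146.0, 153.1 and 183.8 in the FOXA1 transfected cells and 126.4, 135.2 and 142.8 in the control cells, above in all arrays (log2 difference 0.25, SE 0.12), while the other 3 bright probe sets lay between −0.15 and −0.11 and overlapped. MAP2K4 had an adjusted p = 0.606, with log2 differences of 0.24 and −0.13. MAP3K5, in contrast to these, had both probe sets on the lower side without overlap, and all 3 of MAP3K12 lay on the higher side, from 0.28 to 1.16. The plot of probe sets shows the spread within each gene.

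**Figure D3:**
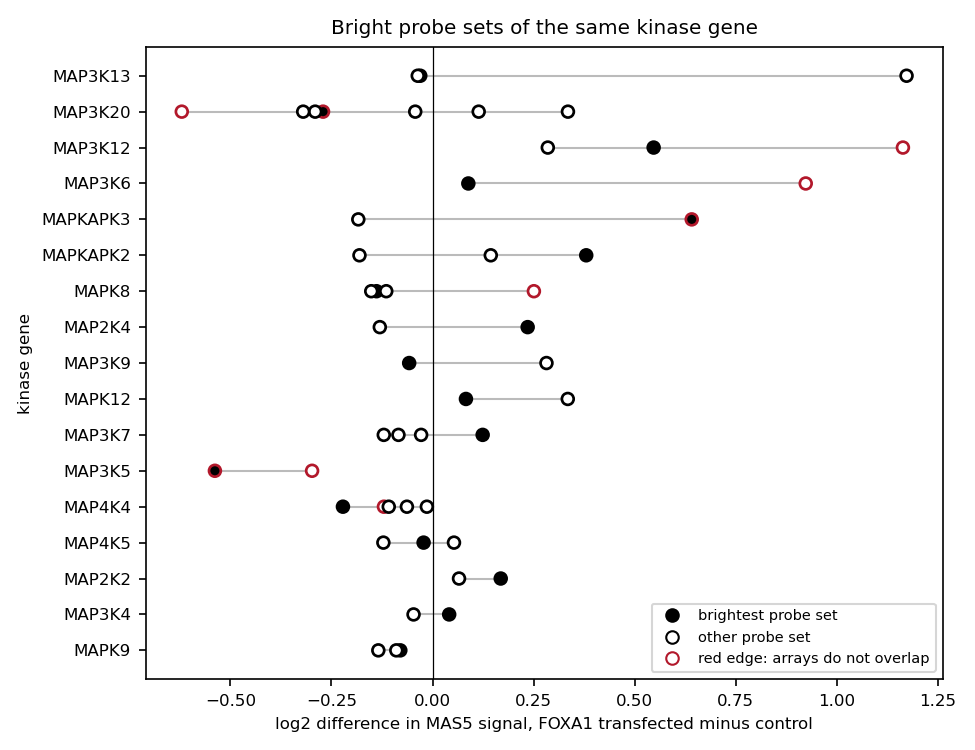
Log2 difference in MAS5 signal between FOXA1 transfected and control cells (x axis) at each probe set above the median signal, for the 17 kinase genes with 2 or more of them (y axis, ordered by range); a filled circle is the brightest probe set and a red edge marks arrays that do not overlap. MAP3K5 has both probe sets below 0 with red edges, while MAPKAPK3, MAP3K20 and MAPK8 have probe sets on both sides of 0.

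The other genes of the pathway, in 6 lists by role, gave 1 call among 71 measured, where 0.091% of all genes were called. Of the 71, 30 lay above 0 and 41 below (19 and 52 after median centring), with a median of −0.04 beside the 0.07 of all genes, and 14 did not overlap (19.7%, the same share as of all genes), 7 above and 7 below. The call was MKNK2 (MNK2), a kinase below ERK and p38 that phosphorylates the cap-binding protein eIF4E. It read 741.1, 853.8 and 832.0 in the FOXA1 transfected cells and 1241.0, 1225.7 and 1163.1 in the control cells, and it fell by 0.58 on the log2 scale (SE 0.08, adjusted p = 0.0382) at this probe set. Its dimmer probe set, 223199_at, went the other way, 68.6 ± 6.81 against 53.9 ± 2.89 (log2 difference 0.34), also without overlap. The call of MKNK2 was lost without the intensity trend and without the third control array, where no probe set was called lower. With _x_at and _s_at probe sets left out, the called one, 218205_s_at, was not tested. The call under the other settings is not given here. Among the 8 kinases below ERK and p38 the arrays did not overlap for 6, 3 above and 3 below, against 25.1% of all genes above the median signal, where all 8 lay. They include RPS6KA6 (RSK4), at 66.2 ± 4.90 against 98.3 ± 5.58, and RPS6KA4 (MSK2), at 69.2 ± 6.53 against 49.5 ± 2.37.

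Of the RAF kinases, the MAP3Ks of the ERK arm under another name, ARAF was measured, at 101.2 ± 4.54 against 77.1 ± 4.65 (log2 difference 0.39, SE 0.12). The 18 scaffolds and adaptors split 9 above and 9 below (6 and 12 after median centring). The smallest p values among them were those of PEBP1, which binds RAF (2364 ± 115 against 2810 ± 72.6), TAB2, an adaptor of TAK1 (420.1 ± 47.5 against 514.6 ± 29.5), and CNKSR1, a dim RAF scaffold (18.4 ± 3.30 against 10.1 ± 2.77). Among the 15 phosphatases, which switch MAPKs off, 5 lay above 0 and 10 below (4 and 11 after median centring). PPM1A had a log2 difference of −0.47 without overlap, DUSP10, which acts on JNK and p38, of −0.38, and DUSP7 of 0.31.

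Of 17 transcription factors that MAPKs phosphorylate or act through, 5 lay above 0 and 12 below (3 and 14 after median centring). Of the 17, all above the median signal, 2 did not overlap, against 25.1% of all genes above that signal. Both were on the higher side. ELK1, the classical ERK substrate, read 377.8, 324.7 and 319.5 in the FOXA1 transfected cells and 234.9, 206.8 and 195.0 in the control cells (log2 difference 0.68, SE 0.11, adjusted p = 0.0590). FOSL1, the AP-1 subunit that ERK signalling induces and stabilises, read 148.4, 193.0 and 171.7 against 83.4, 74.5 and 117.0 (log2 difference 0.92, SE 0.17, adjusted p = 0.0941). ATF2, a substrate of JNK and p38, had a log2 difference of −0.31. The 12 genes that ERK signalling is known to induce split with 7 above 0 and 5 below (2 and 10 after median centring) and a median of 0.03. IER3, which the study also chose for its list on these arrays, alone of the 12 had no overlap, against 19.7% of all genes. It read 388.8 ± 28.4 against 539.8 ± 22.7 (log2 difference −0.48, adjusted p = 0.0932), and CCND1 and EGR1 had log2 differences of 0.28 and 0.56.

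**Figure D4:**
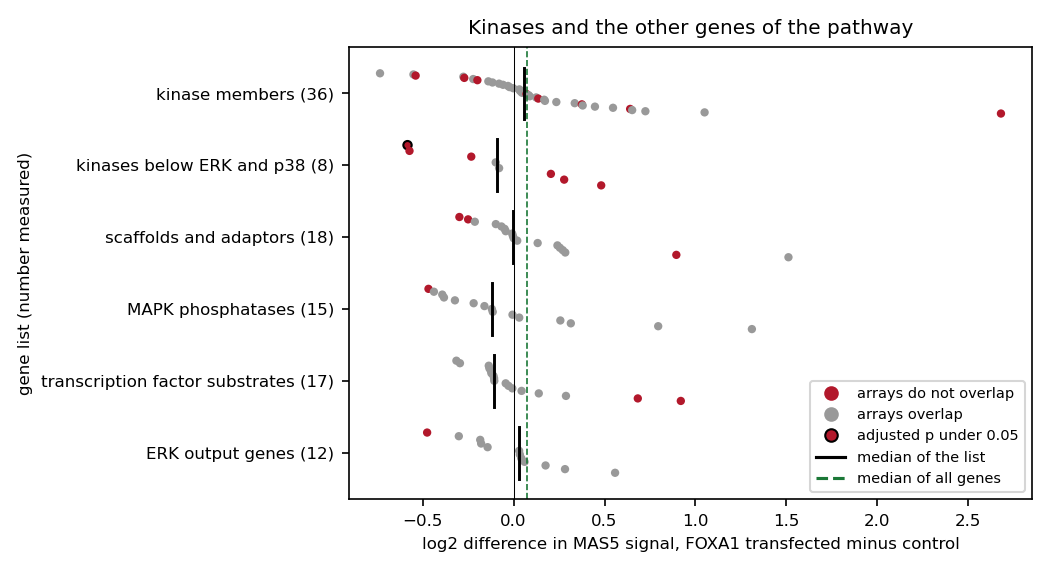
Log2 difference in MAS5 signal between FOXA1 transfected and control cells (x axis) of each gene of the 36 kinases and of 5 other lists of the pathway (y axis, with the number measured), each gene 1 point at its brightest probe set; red points do not overlap between groups, a black edge marks an adjusted p under 0.05, black lines are list medians and the dashed line is the median of all genes. The list medians lie between −0.12 and 0.06, and MKNK2 has the black edge.

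The ERK5 arm, which was set apart from these cascades, held MAP2K5, whose probe set 211371_at read 271.7 ± 102 in the FOXA1 transfected cells and 8.40 ± 5.16 in the control cells (log2 difference 5.13, adjusted p = 0.00118), while its brightest probe set had a log2 difference of 0.33. MAPK7 (ERK5), MAP3K3 and MAP3K2 had log2 differences of 0.42, 0.24 and −0.15.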

How the data were processed

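Total RNA from 6 dishes of EJ cells was hybridised to Affymetrix U133 Plus arrays, 3 per group, and grouped by GEO's labels. The authors deposited 1 linear signal intensity per probe set, made with MAS5 per the labels and scaled to 1 trimmed mean. The study's methods describe RMA log2 values tested with SAM, which are another summary and are not used here. The number of arrays limits the precision. The study's methods state triplicate transfections but not whether these were made on separate occasions, so a p-value here reflects the spread between dishes. All 6 columns of the table were matched to samples.

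Of 54675 probe sets, 62 array controls were left out. The 25 intensities at 0 were set to 0.1, and log2 values were fitted with limma 3.58.1 (lmFit, eBayes with an intensity trend, two-sided) in R 4.3.3, with Benjamini-Hochberg adjustment over 54613 probe sets and a threshold of 0.05. Probe sets with 1 symbol (41091; 1801 had several and 11721 none) were named from the platform annotation, which for 41037 matched RefSeq by Entrez ID. A gene was read by its brightest probe set by mean log2 signal. Intervals are 95% intervals of the fit, and "no overlap" means that every array of 1 group lay beyond every array of the other. diffSplice, with precision weights from the intensity trend, was run over probe sets above the median mean signal. The weights were added after tests on simulated data. Levels of different probe sets are not comparable.

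The members and lists were chosen with earlier results of these data known. Values by array are given for members without overlap and above the median signal, for the 10 with the smallest p, and for MAP3K5; up to 6 genes by diffSplice p and up to 3 per other list are named. The alternatives were SAM, no intensity trend, quantile normalization, median centring, a floor at the 20th percentile, leaving out dim or _x_at and _s_at probe sets, the median over a gene's probe sets, a replicate block and leaving out each array. The replicate numbers carried no stated pairing.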

Additional observations from a re-analysis of the deposited data

How the results depend on the processing

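Over all probe sets 32 were called, against 4 with SAM, 1 without the intensity trend, 7 after median centring, 174 with dim probe sets left out, 6 without _x_at and _s_at probe sets and from 4 to 76 with 1 array left out (76 without the third FOXA1 array, 4 without the third control array). The count for the members stayed at 0 except in 2 settings. With signals under the 20th percentile raised to it there were 2, MAP3K5 (adjusted p = 0.036) and MAP3K19 (adjusted p = 0.0397), and with dim probe sets left out there was 1, MAP3K5 (adjusted p = 0.0351). Over all its settings the adjusted p of MAP3K5 ran from 0.0351 to 0.496. Members above 0 numbered 11 after median centring, where the median was −0.12 (−0.11 over all genes), and the median was 0.027 after quantile normalization. Members without overlap ranged from 10 to 14 with 1 array left out, when between 26.6% and 35.5% of all genes do not overlap. Median centring turned MAP2K1 to −0.11, MAPK6 to −0.0096 and MAPKAPK5 to −0.047, and these were the only 3 turned of 193 values of the 13 genes given by array under an alternative. A test was made for 180 of the 193, and 177 of these stayed on the same side of the threshold.

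diffSplice called 61 genes, against 19 without _x_at and _s_at probe sets, 27 without weights and from 11 to 68 with 1 array left out. No member was among them in any of these. The fit without weights was the one first planned, and it was kept as an alternative once the weights were added. Arrays with the same number deviated together only weakly (r of 0.04, 0.16 and 0.11), and the labels give no pairing, so that they share only a number. With the replicate number as a block the fit called 85 probe sets and diffSplice 103 genes, and again no member. The cause of these shifts was not tested.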
